A study of Mus musculus with 17 samples.

Results

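The transporters that carry glucose and lactate across cell membranes were followed in the testes and forebrain of newborn mice lacking 1 or both functional copies of Ocn, the osteocalcin gene. The 8 genes were chosen by name among the 55359 genes of the count table, and all 8 were found by their Ensembl identifier and passed the filter on low counts in both organs. They cover the facilitative hexose transporters Slc2a1, Slc2a3 and Slc2a8, the proton-coupled myo-inositol transporter Slc2a13, the monocarboxylate transporters Slc16a1, Slc16a3 and Slc16a7, and Bsg, which encodes basigin, the membrane partner of Slc16a1 and Slc16a3 proteins.

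RNA-seq was done on 8 testes libraries (2 WT, 3 Ocn+/- and 3 Ocn-/-) and 9 forebrain libraries (3 of each genotype), all from male mice at postnatal day 1. The mutant mice carried the Ocn_GK allele, made by homologous recombination in embryonic stem cells, on a 129/SvEv background. WT pups were born from WT mothers, whereas Ocn+/- and Ocn-/- pups were both born from Ocn-/- mothers, so that the genotype of the pup, that of the mother and the litter cannot be told apart. The sample labels call the brain tissue hippocampus, and the study describes it as forebrain with the hippocampus included. The study counts these samples as mice and gives fewer WT forebrains than the deposited table holds, without naming the library that it left out. The sources used here do not say whether testes and forebrain came from the same pups, nor which pups share a litter, so p-values measure the spread between these libraries.

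Glucose enters most cells down its gradient through GLUT proteins, and GLUT1, the product of Slc2a1, is the main carrier of the blood-brain barrier and of red blood cells. GLUT3, the product of Slc2a3, is the high-affinity carrier of neurons, and GLUT8, the product of Slc2a8, resides largely in intracellular membranes. Lactate, pyruvate and ketone bodies move with a proton through MCT proteins: MCT1 (Slc16a1) is widespread and found at the blood-brain barrier, MCT4 (Slc16a3) is the lactate exporter of glycolytic cells, and MCT2 (Slc16a7) is a high-affinity carrier of neurons. In the testis, Sertoli cells take up glucose and deliver lactate to germ cells, and in the newborn brain ketone bodies and lactate are used beside glucose.

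Library totals ran from 7302376 to 8288986 counts in testes. In forebrain they went with genotype in part, at 12916967, 8778563 and 6518128 counts in WT 1, 2 and 3 and 12087883 to 14621550 in the 6 mutants. The forebrain WT library 3 stood apart, with 15.9% of its counts in its 10 most abundant genes against 5.54% to 6.44% in the other forebrains, and with 5.34% mitochondrial counts against 2.40% to 3.18%; the forebrain calls of the members and the lists are therefore also given without it. Bglap2, an osteocalcin gene, had 0 counts in every library, which allows up to 3 counts, and Bglap had 0 to 5 counts, so that these counts could not check the genotypes.

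The promoters of Slc2a1, Slc16a1 and Slc16a3 are shown here because these are the members whose level differed from WT in forebrain. RefSeq promoter windows, which span 250 bases before to 50 after the start site in GRCm38.p6, were found for 5 of the 8 members, and each matched GRCm39 exactly at 1 place on its chromosome; Slc2a3, Slc16a7 and Bsg had none. The 250 bases before the start site are printed 5′ to 3′ in GRCm39 coordinates, and capitals mark ACGTG and GCGTG, the core letters of the hypoxia response element, on either strand.
Slc2a1, chr4:118965692-118965941, plus strand: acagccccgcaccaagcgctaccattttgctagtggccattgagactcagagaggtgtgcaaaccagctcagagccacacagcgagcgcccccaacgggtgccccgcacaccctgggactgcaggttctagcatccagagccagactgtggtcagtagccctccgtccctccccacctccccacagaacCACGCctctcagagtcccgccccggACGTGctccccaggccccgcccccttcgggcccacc
Slc16a1, chr3:104545730-104545979, plus strand: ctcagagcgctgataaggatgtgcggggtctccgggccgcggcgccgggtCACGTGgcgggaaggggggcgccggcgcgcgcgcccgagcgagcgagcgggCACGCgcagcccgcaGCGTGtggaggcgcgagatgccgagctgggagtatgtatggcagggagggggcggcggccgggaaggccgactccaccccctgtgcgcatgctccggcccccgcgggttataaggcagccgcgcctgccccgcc
Slc16a3, chr11:120839643-120839892, plus strand: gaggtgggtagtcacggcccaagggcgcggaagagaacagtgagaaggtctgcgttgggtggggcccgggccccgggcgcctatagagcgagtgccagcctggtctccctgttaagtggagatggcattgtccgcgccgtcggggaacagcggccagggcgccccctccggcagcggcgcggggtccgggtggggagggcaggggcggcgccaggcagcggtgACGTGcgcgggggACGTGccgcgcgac

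Over the full window of 300 bases, Slc2a1 held 1 ACGTG and 1 GCGTG, Slc16a3 held 2 ACGTG and 0 GCGTG, and Slc16a1 held 3 ACGTG and 2 GCGTG. Both strands were searched, so the palindrome CACGTG of Slc16a1 counts as 2 of its ACGTG matches, and the remaining ACGTG of this gene lies from base 20 to base 24 after the start site and outside the printed stretch. Slc2a8 held 1 GCGTG, and Slc2a13 held neither. Of all 32851 windows in the table, 19.6% held ACGTG, 32.4% GCGTG and 43.8% at least 1 of them, while 7.15% held CACGTG. The GC box GGGCGG occurred 2 times in Slc2a1, 3 times in Slc2a13 and 1 time each in Slc16a1 and Slc16a3, against 35.7% of all windows with a match. The cAMP response element TGACGTCA was found in 0 of the 5 windows and in 1.79% of all windows. These matches are letters in a window and no measure of binding. The RefSeq start site of Slc16a3 lay 1047 bases downstream of the first base that GENCODE gives for the gene, against 34 bases for Slc2a1 and 169 for Slc16a1.

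Whether loss of osteocalcin changes these transporters was examined by comparing Ocn+/- and Ocn-/- libraries together with WT in each organ. In testes, 3 of the 8 genes fell: the glucose transporter Slc2a1, the lactate exporter Slc16a3 and its partner Bsg. In forebrain, Slc2a1 and Slc16a3 fell and Slc16a1 rose. Calls rest on edgeR's quasi-likelihood test with Benjamini-Hochberg adjustment across every gene fitted in the organ, at a threshold of 0.05. By this rule 9.94% of the 16361 genes tested were called in testes, 4.51% higher and 5.43% lower, and 8.68% of the 16076 genes tested in forebrain, 3.29% higher and 5.39% lower. With libraries scaled by their size alone, the share of calls that were higher was 65.5% against 45.4% in testes and 64.6% against 37.9% in forebrain, and the members called in each organ were the same 3. The median log2 fold change over the 8 genes was -0.40 in testes and -0.05 in forebrain.

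**Figure D1:**
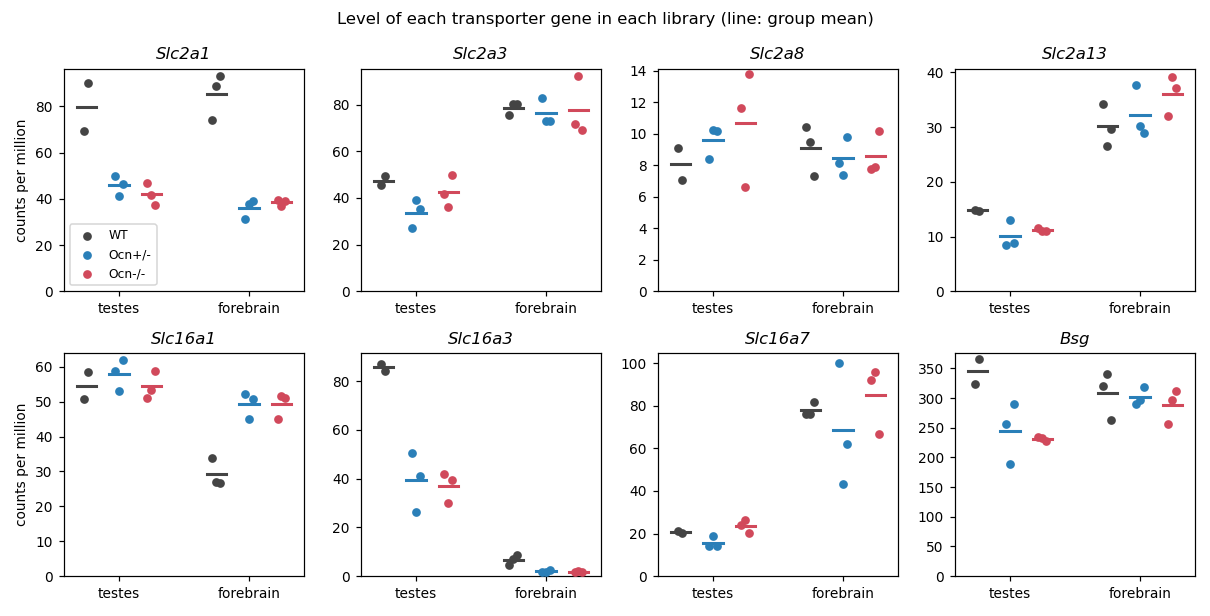
Level of each of the 8 genes in CPM (vertical axes, starting at 0 and scaled per gene) in each testes and forebrain library, coloured by genotype, with a line at each group's mean. The WT points of Slc2a1 and Slc16a3 lie above every mutant point in both organs, and the WT points of Slc16a1 lie below every mutant point in forebrain.

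Slc2a1 (ENSMUSG00000028645.12, GRCm39 chromosome 4, 118965908 to 118996365, plus strand) encodes GLUT1. In testes its level was 69.2 and 90.1 CPM (counts scaled to a common library size after TMM normalization) in WT, 49.9, 41.1 and 46.3 in Ocn+/- and 46.9, 41.5 and 37.4 in Ocn-/-. Each of the 6 mutants was thus lower than either WT library. The log2 fold change was -0.86 (SE 0.133, edgeR adjusted p = 0.000946), or 0.551 times the WT level. In forebrain Slc2a1 stood at 74.0, 88.6 and 93.2 CPM in WT, 31.4, 37.9 and 38.8 in Ocn+/- and 39.5, 36.9 and 39.0 in Ocn-/-. Again no mutant library reached a WT library, and the mutants lay close together. The log2 fold change was -1.19 (SE 0.0916, edgeR adjusted p = 3.89e-07), or 0.438 times WT, and without forebrain WT 3 the call held. The change of Slc2a1 in testes minus that in forebrain was 0.32 on the log2 scale (SE 0.165, 95% interval -0.02 to 0.66, edgeR adjusted p = 0.308), so a difference between the organs was not called. Its transcript shared 3.46% of 50-base stretches with Gm12868, a noncoding RNA gene on the opposite strand.

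Slc16a3 (ENSMUSG00000025161.17, chromosome 11, 120838846 to 120851694, plus strand) encodes MCT4. Its testes levels were 87.1 and 84.3 CPM in WT, 50.6, 26.4 and 41.0 in Ocn+/- and 41.8, 30.2 and 39.3 in Ocn-/-. The highest mutant testis thus remained far under the lower WT testis. The log2 fold change was -1.17 (SE 0.187, edgeR adjusted p = 0.0029), or 0.446 times WT. In forebrain the gene was low, at 49 to 60 counts per WT library and 22 to 35 counts per mutant library. These counts gave 4.42, 6.91 and 8.72 CPM in WT, 1.62, 1.86 and 2.35 in Ocn+/- and 1.76, 2.01 and 1.81 in Ocn-/-, and the groups did not overlap. The log2 fold change was -1.77 (SE 0.249, edgeR adjusted p = 0.000228), or 0.292 times WT. The difference between the organs was not called (0.56, 95% interval -0.08 to 1.20, edgeR adjusted p = 0.342). Slc16a3 overlaps Csnk1d on the opposite strand, and 46.2% of the 50-base stretches of its canonical transcript occur in Csnk1d transcripts, so with a library kit that was not named as directional their reads cannot be fully told apart. Csnk1d, a casein kinase gene at 139 to 195 CPM in all libraries, had a log2 fold change of 0.26 in testes (edgeR adjusted p = 0.131) and rose by 0.22 in forebrain (edgeR adjusted p = 0.0389).

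Slc16a1 (ENSMUSG00000032902.2, chromosome 3, 104545811 to 104565780, plus strand) encodes MCT1. In forebrain it rose from 33.9, 27.1 and 26.7 CPM in WT to 52.1, 45.1 and 50.6 in Ocn+/- and 45, 51.5 and 51 in Ocn-/-. Every mutant forebrain lay above every WT forebrain. The log2 fold change was 0.74 (SE 0.104, edgeR adjusted p = 0.000233), or 1.67 times WT. In testes the same gene stood at 50.8 and 58.4 CPM in WT, 58.7, 53.0 and 62.0 in Ocn+/- and 51.1, 53.3 and 58.6 in Ocn-/-, with groups that overlapped. The testes log2 fold change was 0.04 (95% interval -0.22 to 0.30, edgeR adjusted p = 0.874). Of the 8 members, Slc16a1 alone was called for a difference between the organs in the joint fit, by -0.71 on the log2 scale for testes minus forebrain (SE 0.157, edgeR adjusted p = 0.0148), where 2.96% of 17800 genes were called. That call was lost without testes WT 2 (-0.61, edgeR adjusted p = 0.159), without forebrain WT 2 (-0.66, edgeR adjusted p = 0.0556) and without forebrain WT 3 (-0.65, edgeR adjusted p = 0.0522). Without testes Ocn+/- 2 Slc2a13 was called as well (-0.77, edgeR adjusted p = 0.0314). The transcript of Slc16a1 shared 0% of 50-base stretches with other genes.

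Bsg (ENSMUSG00000023175.16, chromosome 10, 79540143 to 79547821, plus strand) encodes the chaperone that brings MCT1 and MCT4 to the plasma membrane. Its testes levels were 324 and 366 CPM in WT, 256, 189.7 and 289.6 in Ocn+/- and 235, 232 and 227 in Ocn-/-, and every mutant value lay below both WT values. The log2 fold change was -0.54 (SE 0.13, edgeR adjusted p = 0.0185), or 0.69 times WT. In forebrain Bsg was 321, 339.9 and 263 CPM in WT and 256 to 318 in the 6 mutants, which overlapped. The forebrain log2 fold change was -0.06 (95% interval -0.23 to 0.11, edgeR adjusted p = 0.671). The difference between the organs, -0.49 (SE 0.157), had an edgeR adjusted p of 0.0909 and was not called, but it was called with no filter on low counts (-0.49, edgeR adjusted p = 0.0169) and without testes Ocn+/- 3 (-0.55, edgeR adjusted p = 0.0461).

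Single WT testes decided the testes calls. Without testes WT 2, 0 members were called by edgeR, with log2 fold changes of -0.64 for Slc2a1 (edgeR adjusted p = 0.117), -1.17 for Slc16a3 (edgeR adjusted p = 0.0585) and -0.43 for Bsg (edgeR adjusted p = 0.309), and 125 genes were called in all. Without testes WT 1, Slc2a1 and Slc16a3 were called and Bsg was not (-0.62, edgeR adjusted p = 0.0912), with 286 genes called in all. With either library left out the lone WT testis is assumed to vary like the mutants. In forebrain the same 3 members were called with each library left out, also without WT 3, when 320 genes were called in all. Without WT 3 the log2 fold changes were -1.12 for Slc2a1 (edgeR adjusted p = 1.68e-05), 0.69 for Slc16a1 (edgeR adjusted p = 0.00374) and -1.55 for Slc16a3 (edgeR adjusted p = 0.00597), and the other 5 members ran from -0.22 for Slc2a8 to 0.16 for Slc2a13.

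The other 4 members were called in neither organ for the mutants together. Slc2a3, the neuronal glucose transporter, stood at 75.6 to 80.3 CPM in WT forebrain and 69.2 to 92.2 in the mutants, with a log2 fold change of -0.03 whose 95% interval ran from -0.22 to 0.16. In testes Slc2a3 was 45.5 and 49.3 CPM in WT, 27.1, 39.1 and 35.1 in Ocn+/- and 41.7, 36.3 and 49.9 in Ocn-/- (-0.32, 95% interval -0.65 to 0.00, edgeR adjusted p = 0.191). For Ocn+/- testes alone Slc2a3 had -0.49 (edgeR adjusted p = 0.09) and was called with no filter on low counts, and both Slc2a3 and Slc2a13 were called without Ocn+/- 2. Slc2a13, which carries myo-inositol, was 14.8 and 14.8 CPM in WT testes, 8.50, 13.0 and 8.80 in Ocn+/- and 11.5, 11.1 and 11 in Ocn-/-. All 6 of these mutant values lay under the WT values, yet the log2 fold change of -0.47 (95% interval -0.91 to -0.04) had an edgeR adjusted p of 0.15. Slc16a7, the neuronal lactate carrier, was 76.0 to 81.7 CPM in WT forebrain and varied from 43.1 to 100.3 among the mutants. Its log2 fold change there was -0.03, with a 95% interval from -0.68 to 0.62, so that changes of that size were not detectable. Slc2a13 in forebrain was 26.6 to 34.2 CPM in WT and 28.9 to 39.2 in mutants (0.17, 95% interval -0.07 to 0.41), and Slc16a7 in testes 20.4 and 21.4 in WT and 14.3 to 26.5 in mutants (-0.11, 95% interval -0.48 to 0.26). Slc2a8, the intracellular GLUT8, was the least precise in testes, at 7.07 and 9.07 CPM in WT and 6.63 to 13.8 in the mutants (0.33, 95% interval -0.24 to 0.89). In forebrain it was 7.29 to 10.4 CPM in WT and 7.36 to 10.2 in mutants (-0.11, 95% interval -0.46 to 0.24).

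Counted by overlap alone, 4 members in testes (Slc2a1, Slc2a13, Slc16a3 and Bsg) had all mutants below all WT libraries, where 13.6% of all genes tested did so, and 0 had all above, where 12.5% did. In forebrain 2 members (Slc2a1 and Slc16a3) had all mutants below, against 8.57% of genes, and 1 member (Slc16a1) had all above, against 6.85%.

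**Figure D2:**
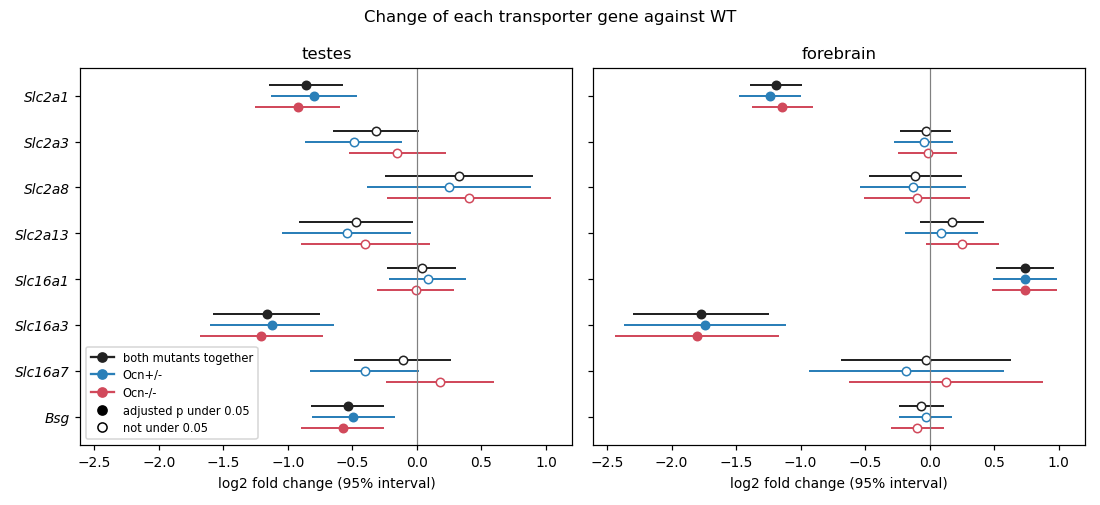
Log2 fold change against WT (horizontal axis) with its 95% interval for each of the 8 genes, for both mutant genotypes together, Ocn+/- and Ocn-/-, in testes (left) and forebrain (right); filled points have an adjusted p under 0.05. The intervals of Slc2a1 and Slc16a3 lie below 0 in both organs, that of Bsg only in testes, and that of Slc16a1 lies above 0 only in forebrain. In testes the intervals of Slc2a13 (both mutant genotypes together and Ocn+/-) and of Slc2a3 (Ocn+/-) also lie below 0, though their adjusted p did not pass.

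To ask whether 1 remaining pup allele of Ocn made a difference, each mutant genotype was compared with WT and with the other. The same 3 members were called in Ocn+/- and in Ocn-/- testes, where 8.25% and 5.64% of all genes were called, and the same 3 in Ocn+/- and Ocn-/- forebrain, where 3.89% and 4.85% were; both comparisons use the same WT libraries. Slc2a1 fell by 0.80 on the log2 scale in Ocn+/- testes (edgeR adjusted p = 0.00641) and by 0.92 in Ocn-/- testes (edgeR adjusted p = 0.00257). The corresponding forebrain values were -1.24 (edgeR adjusted p = 3.03e-06) and -1.14 (edgeR adjusted p = 1.44e-05). Slc16a3 had log2 fold changes of -1.12 and -1.21 in testes and -1.74 and -1.81 in forebrain for Ocn+/- and Ocn-/-. Slc16a1 had 0.74 in both mutant forebrains. The Bsg call in Ocn+/- testes was at the threshold (-0.49, edgeR adjusted p = 0.0493) and was lost with upper quartile scaling (edgeR adjusted p = 0.0519), with library size alone (edgeR adjusted p = 0.0783) and without WT 1, WT 2, Ocn-/- 1, Ocn-/- 2, Ocn+/- 1 or Ocn+/- 2 (edgeR adjusted p of 0.0502 to 0.361). The Bsg call in Ocn-/- testes (-0.58, edgeR adjusted p = 0.0324) was lost without WT 1, WT 2, Ocn-/- 1 or Ocn-/- 3 (edgeR adjusted p of 0.0657 to 0.391). Without testes WT 1, 1 member, Slc2a1, was called in each mutant genotype, and without testes WT 2 none was.

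Between Ocn-/- and Ocn+/- directly, 0 of the 8 members were called by edgeR or DESeq2 in either organ, beside 0% of all genes by edgeR in testes and 0.00622% in forebrain. At an unadjusted p under 0.05 there were 2 members in testes, Slc2a3 and Slc16a7, beside 11.5% of all genes, and 0 in forebrain, beside 3.2%. Slc16a7 in testes was 14.3, 18.7 and 14.3 CPM in Ocn+/- and 24.2, 26.5 and 20.5 in Ocn-/-, without overlap, but the difference of 0.59 (SE 0.176) had an edgeR adjusted p of 0.303. For Slc2a1 the Ocn-/- minus Ocn+/- difference was -0.13 in testes (95% interval -0.42 to 0.17) and 0.09 in forebrain (95% interval -0.14 to 0.32). For Slc16a3 it was -0.08 in testes (95% interval -0.52 to 0.36) and -0.06 in forebrain (95% interval -0.72 to 0.59). Differences of these sizes were therefore not detectable, which does not show that the genotypes act alike.

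Ratios of counts within a library do not depend on how libraries are scaled. In forebrain there were 0.978, 1.10 and 1.16 counts of Slc2a1 per count of Slc2a3 in WT, and 0.379 to 0.564 in the 6 mutants. Every mutant forebrain thus had fewer Slc2a1 counts per Slc2a3 count than every WT forebrain. These ratios compare libraries and not the genes' levels, since counts also depend on the length of each gene. In testes the ratio was 1.52 and 1.83 in WT and 0.749 to 1.84 in mutants, which overlapped. Counts of Slc16a1 per count of Slc16a3 were 3.06 to 7.67 in WT forebrain and 21.5 to 32.1 in mutant forebrain. In testes they were 0.583 and 0.693 in WT and 1.16 to 2.01 in mutants. The MCT1 transcript thus gained on the MCT4 transcript in all mutants of both organs, through a lower Slc16a3 in testes and through a lower Slc16a3 and a higher Slc16a1 in forebrain. Counts of Slc2a1 per count of Bsg were 0.23 to 0.355 in WT forebrain against 0.108 to 0.154 in mutant forebrain, and 0.214 and 0.246 against 0.16 to 0.217 in testes.

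**Figure D3:**
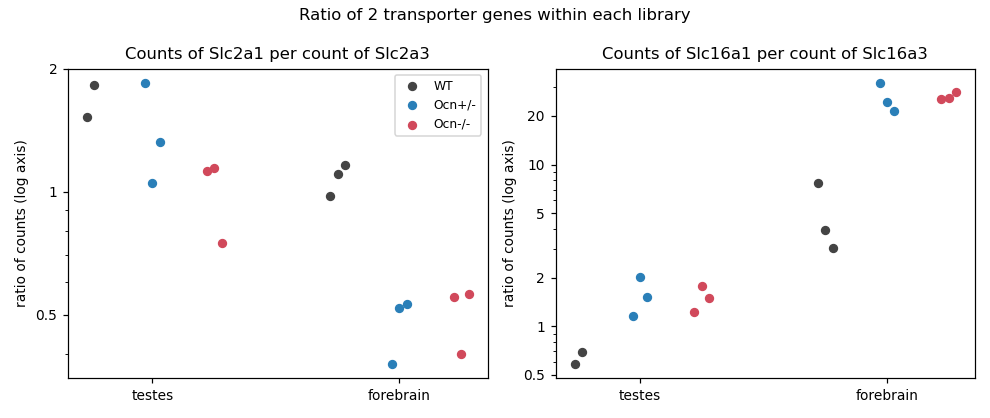
Counts of Slc2a1 per count of Slc2a3 (left) and of Slc16a1 per count of Slc16a3 (right) in each library on log axes, coloured by genotype. In forebrain WT and mutant libraries do not overlap for either ratio; in testes they overlap for the first ratio (0.749 to 1.84 in mutants) and not for the second.

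The organs differed in which carriers they expressed. Against forebrain, testes had much more Slc16a3 (log2 difference 3.8, SE 0.144, edgeR adjusted p = 1.91e-17), and less Slc16a7 (-2.28), Slc2a13 (-1.79), Slc2a3 (-1.25) and Bsg (-0.48). In this fit of both organs together 84.4% of 17800 genes were called, 44.5% higher in testes and 39.9% lower, so that the call of 6 of the 8 members, 1 higher and 5 lower, is near the background. The sixth called member, Slc2a1, differed by -0.20 (edgeR adjusted p = 0.0177), which was -0.05 with upper quartile scaling and 0.12 with library size alone, where the median of all genes was 0.23 and 0.40 instead of 0.09. Relative to that median it was -0.29, -0.29 and -0.28 under the 3 scalings. Slc16a1 (0.09) and Slc2a8 (-0.22) were not called, and Slc16a1 lay 0.01 from the median of all genes under each scaling. Slc16a1 was called as higher in testes with upper quartile scaling (0.24) and with library size alone (0.41), while the Bsg call was lost with library size alone (-0.16, edgeR adjusted p = 0.0669).

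Compared per length, as CPM per kb of the union of a gene's exons over all genotypes, Bsg was the most abundant member in testes at 84.5 ± 18.5 (SD, n = 8) and in forebrain at 119.85 ± 10.5 (SD, n = 9). In testes it was followed by Slc2a1 (9.98 ± 3.40), Slc16a1 (9.35 ± 0.695), Slc2a3 (4.79 ± 0.948), Slc16a3 (3.93 ± 1.83), Slc2a8 (1.61 ± 0.407), Slc16a7 (1.19 ± 0.253) and Slc2a13 (1.02 ± 0.214). Each of these neighbours overlapped with the next over the libraries, save Bsg with Slc2a1 and Slc16a1 with Slc2a3. The order changed with genotype: Slc2a1 was above Slc16a1 in WT testes (15.1 against 9.18) and below it in Ocn+/- (8.62 against 9.67) and Ocn-/- (7.94 against 9.13), while Slc16a3 was above Slc2a3 in WT (6.73 against 5.62) and below it in both mutants. In forebrain the order after Bsg was Slc2a1 (12.6 ± 5.80), Slc2a3 (11.5 ± 1.11), Slc16a1 (8.96 ± 2.24), Slc16a7 (5.74 ± 1.37), Slc2a13 (3.62 ± 0.501), Slc2a8 (1.83 ± 0.258) and Slc16a3 (0.343 ± 0.258). Here each neighbour from Slc2a1 to Slc2a13 overlapped with the next, while Bsg, Slc2a8 and Slc16a3 lay apart from all others. By this length Slc2a1 led in WT forebrain, at 20.15 per kb against 11.6 for Slc2a3 and 6.13 for Slc16a1. In Ocn+/- it was 8.56 against 11.3 and 10.4, and in Ocn-/- 9.13 against 11.5 and 10.4, so that it was below both of them in each mutant genotype. Divided by the canonical transcript instead, Slc2a3 led Slc2a1 in forebrain (21.8 ± 2.10 against 13.3 ± 6.13), and Slc16a3 reached 9.45 ± 4.39 in testes, beside Slc2a1 at 10.5 ± 3.59. The length chosen thus sets part of this order, since the transcripts that are expressed are not known from counts per gene.

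**Figure D4:**
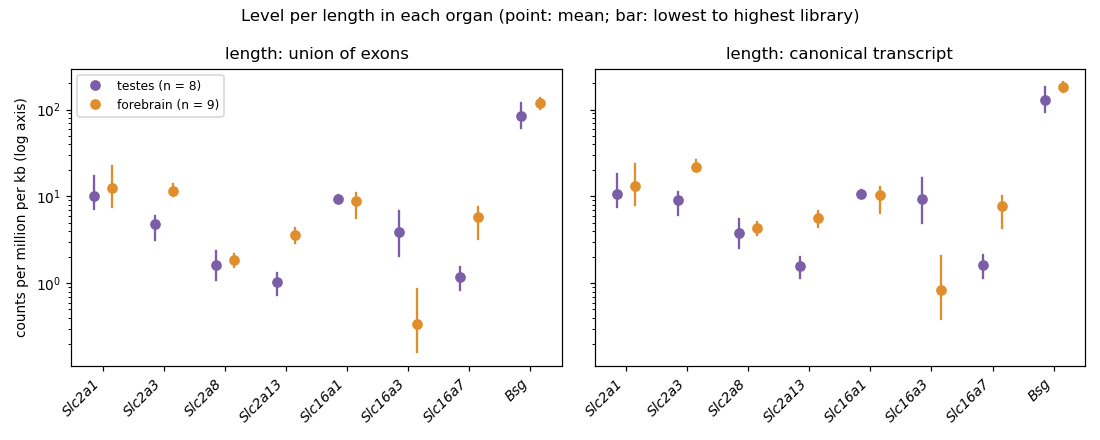
Level of each gene in CPM per kb (log axis) in testes and forebrain, as the mean and the lowest to highest library over all genotypes, with length taken as the union of exons (left) or the canonical transcript (right). Bsg lies above all other genes in both organs, and Slc16a3 lies lowest in forebrain and in the middle of the range in testes.

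Related genes were read from lists chosen by function with earlier results of these data known, as the marker lists were. Of all genes 27% in testes and 25.4% in forebrain had an unadjusted p under 0.05 for the mutants against WT. The unadjusted counts of these and the marker lists stand beside these shares. The edgeR calls of the lists stand beside 9.94% of all genes in testes and 8.68% in forebrain. Their DESeq2 calls stand beside 1878 of 16361 genes in testes and 1639 of 16076 in forebrain. Among other facilitative hexose transporters, 1 of 6 tested fell in testes: Slc2a12, from 6.94 and 10.2 CPM in WT to 3.85 to 5.69 in mutants (log2 fold change -0.86, edgeR adjusted p = 0.0481). This call was lost under each of upper quartile scaling, library size alone, DESeq2 and the replicate block, and also without either WT testis, with adjusted p from 0.0348 to 0.48 over all alternatives. In forebrain edgeR called 0 of 6, with 1 at an unadjusted p under 0.05 and 0 by DESeq2. Among the other SLC16 genes, edgeR called 0 of 9 in testes, with 3 at an unadjusted p under 0.05 and 0 by DESeq2. In forebrain 1 of 10 fell: Slc16a6, from 32.9 to 34.9 CPM in WT to 10.4 to 19.8 in mutants (log2 fold change -1.18, SE 0.166, edgeR adjusted p = 0.000728), also called without forebrain WT 3. Slc16a6 encodes an SLC16 carrier that is known for export of ketone bodies in liver. Emb and Nptn, the other partners of MCT proteins, were called in neither organ, with 0 of them at an unadjusted p under 0.05 and 0 by DESeq2. Txnip and Arrdc4, arrestin-like proteins that remove GLUT1 from the membrane, were called by edgeR in neither organ, though both had an unadjusted p under 0.05 in forebrain, where DESeq2 called 1, against 0 by either measure in testes. Their median log2 fold change in forebrain was -0.74. Txnip was 174 to 229 CPM in WT forebrain, 60.7 to 144 in Ocn+/- and 50.1 to 105 in Ocn-/-. Arrdc4 was 56.6 to 77.6 CPM in WT forebrain, 42.5 to 54.7 in Ocn+/- and 45.3 to 62.1 in Ocn-/-, with overlap. Of the sodium-coupled glucose carriers and the SWEET-like carrier Slc50a1, only Slc50a1 was tested, and it was not called by edgeR or DESeq2, with an unadjusted p under 0.05 in testes alone.

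Of the enzymes that act on the cargo of these carriers, the hexokinases and lactate dehydrogenases, 2 of 7 fell in testes and 2 of 6 in forebrain. In testes Ldha, whose enzyme interconverts pyruvate and lactate, was 454 and 529 CPM in WT and 150.5 to 194.5 in mutants (log2 fold change -1.51, edgeR adjusted p = 6.57e-07). Hk1, the hexokinase that traps glucose in most tissues, was 98.2 and 100.05 CPM in WT testes and 62.4 to 78.8 in mutants (-0.53, edgeR adjusted p = 0.00816), and this call was lost without either WT testis. In forebrain Ldha changed less (-0.34, edgeR adjusted p = 0.0143, lost without forebrain WT 2 or with library size alone), and Hk2 fell by 0.79 on the log2 scale (edgeR adjusted p = 0.0162, lost without forebrain WT 2 or WT 3). Genes induced by the hypoxia-inducible factor HIF, to which Slc2a1, Slc16a3 and Ldha also belong, fell in 11 of 13 cases in testes and in 7 of 12 in forebrain. Their medians were -0.96 and -0.50. Of all genes tested, 5.43% in testes and 5.39% in forebrain were called lower by the same rule. Vegfa, the vascular growth factor, fell by 1.18 in testes and by 1.19 in forebrain on the log2 scale, and Pgk1, a glycolytic kinase, by 1.54 in testes. In forebrain the Pgk1 value of -0.22 was not called (edgeR adjusted p = 0.0717). Without forebrain WT 3 the forebrain count was 6 of 12, beside 250 lower calls among all 16432 genes tested. Without testes WT 1 or WT 2 fewer of the HIF-induced genes were called in testes, with medians of -1.08 and -0.83. The change differed between the organs for 4 of 13 of these genes, all with a lower value in testes, Pgk1 among them (-1.33, edgeR adjusted p = 1.07e-05). The list names genes by what they are known to respond to, and HIF activity itself was not measured.

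**Figure D5:**
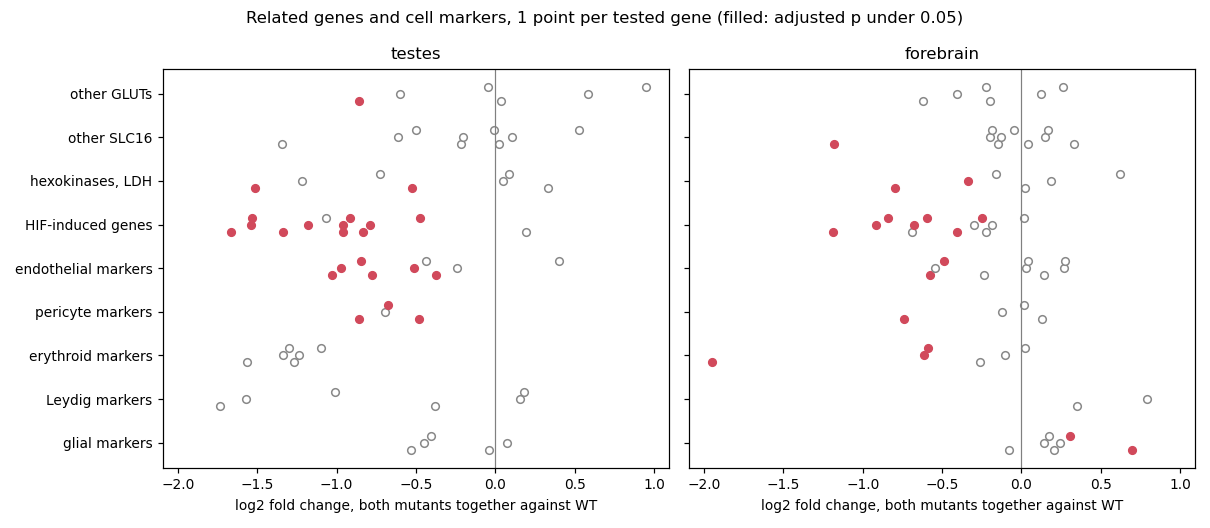
Log2 fold change of both mutant genotypes together against WT (horizontal axis) for each tested gene of 9 lists, in testes (left) and forebrain (right); filled points have an adjusted p under 0.05. HIF-induced genes lie mostly below 0 in both organs, while endothelial markers lie mostly below 0 in testes and around 0 in forebrain.

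Markers of other cell types moved with some of these results, and in whole organs fewer cells of a type and less RNA per cell cannot be told apart. In testes 6 of 9 endothelial markers fell (Pecam1 by 1.03 and Kdr by 0.85 on the log2 scale), with a summed level of 629 to 636 CPM in WT and 376 to 484 in mutants, and 3 of 4 pericyte markers fell, with 327 to 397 CPM against 182 to 272. Neutrophil markers fell in 3 of 4 cases, from 37.0 to 60.5 CPM in WT to 3.06 to 13.8 in mutants. Erythroid markers, whose cells are rich in GLUT1 protein, had a median of -1.28 with 0 of 6 called by edgeR or DESeq2 and 2 at an unadjusted p under 0.05, at 2600 to 6865 CPM in WT and 865 to 3943 in mutants. Leydig cell markers summed to 1799 to 1924 CPM in WT and 886 to 1440 in mutants, with 0 of 6 called by edgeR, 2 at an unadjusted p under 0.05 and 1 by DESeq2. Germ cell markers were 308 to 360 CPM in WT and 289 to 344 in mutants, and 0 of 6 were called by edgeR or DESeq2 or at an unadjusted p under 0.05. Of the Sertoli cell markers 1 of 7, Sox9, rose (1.01, edgeR adjusted p = 0.000473). The median of that list was 0.16, and its sums overlapped at 1142 to 1307 CPM in WT and 1147 to 1770 in mutants. Of the macrophage markers 2 of 8 rose (Cx3cr1 and Cd68), while the median of the list was -0.33. Their sums were 107 to 117 CPM in WT, 112 to 151 in Ocn+/- and 58.9 to 111 in Ocn-/-. Taken singly, Ocn+/- had 2 of 8 called higher and Ocn-/- had 0. Among myoid cell markers 1 of 5, Myh11, fell, and among adipocyte markers 1 of 2 tested, Fabp4. The macrophage and myoid calls were lost without either WT testis, and that of Fabp4 without WT 2. Without testes WT 1 the lower calls were 3 of 9 endothelial, 2 of 4 pericyte and 2 of 4 neutrophil markers, and without WT 2 they were 2, 1 and 2. Of these lists only that of adipocytes held a marker, 1 of 5, at 0 in all testes. The part of these cells in the testes values of Slc2a1, Slc16a3 and Bsg was not tested.

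In forebrain the endothelial markers had a median log2 fold change of 0.03 where Slc2a1 had -1.19, and their summed level of 205 to 233 CPM in WT lay within the 174 to 245 of the mutants; 2 of 9, Pecam1 and Kdr, fell. Among pericyte markers 1 of 4 fell, and the sums overlapped at 159 to 200.3 CPM in WT and 140 to 191 in mutants. Erythroid markers fell in 3 of 6 cases, with sums of 523 to 723 CPM in WT, 357 to 408 in Ocn+/- and 487 to 599 in Ocn-/-, while Slc2a1 stood at 31.4 to 38.8 CPM in Ocn+/- and 36.9 to 39.5 in Ocn-/-. Glial markers rose in 2 of 7 cases (Gfap by 0.70 and Fabp7 by 0.31), with 984 to 1106 CPM in WT and 1062 to 1403 in mutants. Striatal markers rose in 2 of 7 cases, with 162 to 198 CPM in WT and 187 to 279 in mutants. Olfactory bulb markers summed to 30.2 to 35.2 CPM in WT, 101 to 129.8 in Ocn+/- and 24.4 to 83.4 in Ocn-/-, with 0 of 5 called by edgeR, 3 at an unadjusted p under 0.05 and 1 by DESeq2. Hippocampal markers summed to 225 to 391 CPM over all forebrains, and 0 of 6 were called by edgeR or DESeq2 or at an unadjusted p under 0.05. Neuronal markers summed to 8408 to 8851 CPM in WT and 7652 to 8226 in mutants, lower in all 6, with 1 of 7 called lower (Dcx) and 1 higher (Syt1), the latter not called when any one of the WT forebrains was left out. Choroid plexus markers summed to 590 to 755 CPM in WT, 588 to 877 in Ocn+/- and 330.1 to 543 in Ocn-/-, with 0 of 7 called by edgeR or DESeq2 and 1 at an unadjusted p under 0.05. Among macrophage markers 1 of 7, Cx3cr1, rose, also without WT 3. Among myoid markers 1 of 3, Acta2, fell, and it was not called when any one of the WT forebrains was left out. Without forebrain WT 3, 0 of 9 endothelial and 1 of 6 erythroid markers were called lower, and 1 of 7 glial and 1 of 7 striatal markers higher. The part of these cells and regions in the forebrain values was not tested. 

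As a description of which genes followed the called members over the libraries of an organ, the 3 genes with the highest Pearson correlation of log2 CPM were taken. For Slc2a1 they included Tpi1 (r = 0.982) and Vegfa (0.982) over the 8 testes, and were Eno1 (0.985), Zmym3 (0.981) and Eif4a2 (0.981) over the 9 forebrains. Tpi1 and Eno1 encode glycolytic enzymes. Slc16a3 was followed by Zfp641 (0.968), Man1b1 (0.964) and the pseudogene Gm5537 (0.963) in testes, and by Aasdh (0.987), Map2k6 (0.987) and Vegfa (0.984) in forebrain. Bsg was followed in testes by Tnnt3 (0.976), Cyp11a1 (0.970) and Dusp8 (0.965), and Slc16a1 in forebrain by Adamts4 (0.991), Angptl4 (0.975) and Sptb (0.968). Adamts4 (log2 fold change 0.99) and Angptl4 (1.3), a regulator of lipoprotein lipase, were higher in mutants as Slc16a1 was. These correlations share the contrast of mutants and WT, and carry no test.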

How the data were processed

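Polyadenylated RNA of testes and forebrain was sequenced, and per the labels and the study's methods the reads were trimmed with Trim Galore 0.6.6, aligned to GRCm39 with STAR 2.7.8a and counted with RSEM 1.3.3. The authors deposited a table of unnormalized expected counts from RSEM, in which reads matching several genes are divided among them. Libraries were made with the NEBNext Ultra RNA kit, not named as its directional version. The GENCODE release and the strand setting used in counting were not given in the sources used here. Of 55359 identifiers, 54749 were found in GENCODE vM39, all 8 members in another version than that of the table.

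Expected counts were rounded. Each organ was fitted with its 3 genotypes in R 4.3.3 with edgeR 4.0.16 (TMM scaling, filterByExpr, robust quasi-likelihood test, no covariates, two-sided), and both organs jointly for the comparison of organs and its interaction with genotype. CPM uses TMM-scaled library sizes, and SE is the log2 fold change divided by the root of F. The alternatives were upper quartile scaling, library size alone, DESeq2 1.42.0, no filter, at least 10 counts in every library, the replicate number as a block and each library left out. The length of the canonical transcript and the list counts without each WT library were added after seeing the data. The fit of each organ was first checked on simulated counts with known changes, for both mutant genotypes together against WT. The joint fit and the other comparisons were not checked in this way. All 8 members were named, with up to 4 called genes of each related list and the 3 genes most correlated with each called member. One of these correlated genes is not reported here. Members and lists were chosen with earlier results of these data known. Libraries of a group differed by more than sampling noise (mean chi-square per gene 3.57 to 90.8), so none was counted as a repeat.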

Additional observations from a re-analysis of the deposited data

Results flagged for a closer look

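The effect of the mutant genotypes differed between testes and forebrain, by the interaction term of the joint edgeR fit, for Slc16a1 among the members, for 3 hexokinase and lactate dehydrogenase genes, for 4 HIF-induced genes and for Sox9 among the Sertoli cell markers. A single gene, with a negative interaction term, was also called in each of the endothelial, pericyte, glial, neuronal and striatal marker lists. The testes log2 fold change minus the forebrain log2 fold change was -0.7142 for Slc16a1 (edgeR adjusted p = 0.0148), with a higher level in all 6 mutant forebrains. It was -1.191 for Ldha (edgeR adjusted p = 4.35e-05), which fell in both organs. It was -0.5616 for Hk1 (edgeR adjusted p = 0.0116), which fell in testes and had a log2 fold change of 0.02 in forebrain. It was 0.8082 for Hk2 (edgeR adjusted p = 0.0324), which fell in forebrain and had a log2 fold change of 0.05 in testes. Among HIF-induced genes it was -1.326 for Pgk1, -0.6013 for Aldoa, -1.084 for Bnip3 and -0.9978 for Egln3 (edgeR adjusted p of 1.07e-05 to 0.017), and for Sox9 it was 0.9533 (edgeR adjusted p = 0.014). The Ldha call held under all 23 alternatives, and the Hk2 call under 16 of 23. The Hk1 call was lost without testes WT 1 (-0.58, edgeR adjusted p = 0.0555) or testes WT 2 (-0.55, edgeR adjusted p = 0.0844). The Hk2 call was lost with the replicate block and, with edgeR adjusted p of 0.0519 to 0.199, without testes WT 1, testes WT 2, forebrain WT 2, forebrain WT 3, forebrain Ocn-/- 2 or forebrain Ocn+/- 3. The Slc16a1 call was lost without testes WT 2, forebrain WT 2 or forebrain WT 3.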

How the results depend on the processing

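The 3 members called in forebrain were called under every alternative run, with log2 fold changes of -1.29 to -1.12 for Slc2a1, 0.68 to 0.87 for Slc16a1 and -2.02 to -1.55 for Slc16a3 with a library left out. Leaving out 1 library gave 0 to 3 called members in testes for both mutant genotypes together, 0 to 4 for Ocn+/-, 0 to 3 for Ocn-/-, 5 to 6 for the level in testes against forebrain and 0 to 2 for the difference between organs in the effect of genotype. That last count was also 2, with Bsg beside Slc16a1, when no filter on low counts was used. Over all genes it called 1023 without the filter and 1027 by DESeq2, against 526. Between Ocn-/- and Ocn+/-, the all-gene counts were 252 in testes and 34 in forebrain without the filter, and 76 and 5 by DESeq2, against 0 and 1. Values near 0 changed sign. With library size alone the forebrain log2 fold changes were 0.0634 for Slc2a3, 0.0687 for Slc16a7 and 0.0219 for Bsg, and the levels in testes against forebrain were 0.12 for Slc2a1 and 0.0906 for Slc2a8. With a library left out they ran from -0.0518 to 0.161 for Slc16a1 in testes, in forebrain from -0.224 to 0.0111 for Slc2a8, from -0.16 to 0.0119 for Bsg, from -0.217 to 0.0945 for Slc16a7 and from -0.101 to 0.00923 for Slc2a3, and from -0.22 to 0.10 for Slc16a7 in that difference between organs. With the replicate number as a block, 3 members were called in each organ, the testes value of Slc16a1 was -0.0154, and the Slc2a12 call in testes and the Hk2 difference between organs (0.71, edgeR adjusted p = 0.0725) were lost. The numbers do not pair the libraries by the labels, and deviations of same-numbered libraries of both organs correlated by 0.01 to 0.10 over 8 pairs, against -0.08 to 0.02 over 16 pairs with different numbers. Low counts limit Slc16a3 in forebrain and Slc2a8 in both organs.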
